A study of Mus musculus with 8 samples.

Results

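The 10 genes described here encode amino acid carriers, mostly of neutral amino acids, or their partner subunit. Of these, 5 belong to the Slc38 family (Slc38a1, Slc38a2, Slc38a3, Slc38a5 and Slc38a9). The others are the heavy chain Slc3a2 with its light chains Slc7a5, Slc7a10 and Slc7a11, and the serine carrier Slc1a4. All 10 were measured in mouse spinal cord astrocytes with and without the inwardly rectifying potassium channel Kir4.1, the product of Kcnj10. They were selected by name from the 39179 genes of the count tables, with the difference between the same 2 groups of libraries already known, so their fold changes, and how many of them passed a threshold, are given as a description of these libraries and support nothing further. All 10 were among the 14757 genes that passed the filter on low counts.

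Spinal cords of mixed Swiss-Webster mice aged postnatal day 12 to 14 were freed of meninges and dissociated with papain, and cells positive for Aldh1l1-GFP were isolated by FACS. The 4 libraries of the control group (S1, S2, S6 and S7) came from cre-negative mice, labelled wild-type with Aldh1l1-GFP. The 4 libraries of the knockout group (cKO S3, S4, S5 and S8) came from mice with both Kir4.1 alleles floxed and the Aldh1l1-cre driver, labelled Kir4.1-cKO with Aldh1l1-GFP. The reporter is common to both groups and Cre is found in the knockout group only, so the effects of Cre and of the lost channel cannot be told apart. Aldh1l1, a folate enzyme of astrocytes, provides the promoter of both the reporter and the driver, and whether the controls carry floxed alleles was not given in the sources used here. The replicates are biological replicates per the series' design text. Where 4 values per group follow, they are given in the order S1, S2, S6 and S7 for the controls and S3, S4, S5 and S8 for the knockout group.

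Slc38 proteins move small neutral amino acids together with sodium. The system A carriers Slc38a1 (SNAT1) and Slc38a2 (SNAT2) concentrate glutamine, alanine and serine inside the cell, whereas the system N carriers Slc38a3 (SNAT3) and Slc38a5 (SNAT5) also exchange protons, work in either direction and serve glutamine release from astrocytes in the glutamate-glutamine cycle. Slc7 light chains are exchangers that reach the plasma membrane bound to the heavy chain Slc3a2 (4F2hc).

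The libraries held between 13892736 reads in genes (control S2) and 25065686 (cKO S8). The summary lines of the count tables, which name no gene, held 56.4% to 61.7% of all reads, and transcripts of ribosomal RNA type or of the mitochondrion 33.4% to 45.3% of the reads in genes. Levels of single genes are given as CPM (counts per 1000000 reads in genes, with library sizes adjusted by edgeR's TMM factors). Kcnj10, the deleted gene, was at 1181 to 2306 CPM in the controls and at 27.2 to 37.6 CPM in the knockout group. The 14 astrocyte markers summed to 23318 to 41054 CPM in the controls and 28001 to 36017 CPM in the knockout group, and none was at 0 in any library. In these bulk samples, a lower level through fewer cells of a type cannot be told apart from less RNA per cell.

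Slc38a1 and Slc38a2 lie next to each other on chromosome 15 on the minus strand, and both were higher in the knockout group. Slc38a1 (ENSMUSG00000023169) occupies chr15:96571418-96642913 of GRCm38 with 17 merged exon blocks. Slc38a2 (ENSMUSG00000022462) occupies chr15:96687392-96699730 with 11 merged exon blocks. Their annotated starts are 56.8 kb apart. RefSeq promoter windows were matched for 7 of the 10 genes (no window was used for Slc38a1, Slc38a3 and Slc7a5). The 250 bases before the start are printed for Slc38a2, which was higher in the knockout group, and for Slc7a11, an established target of both ATF4 and NRF2, because these were the only 2 of the 7 windows with a match to the motifs searched. Both run 5′ to 3′ on the minus strand of GRCm38.p6, Slc38a2 from chr15:96699729-96699978 and Slc7a11 from chr3:50443614-50443863, and capitals mark the matches.
Slc38a2: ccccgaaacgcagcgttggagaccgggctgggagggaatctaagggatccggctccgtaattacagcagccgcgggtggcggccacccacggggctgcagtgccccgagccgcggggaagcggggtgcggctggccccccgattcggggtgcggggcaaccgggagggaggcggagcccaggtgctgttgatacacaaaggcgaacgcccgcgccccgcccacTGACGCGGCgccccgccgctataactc
Slc7a11: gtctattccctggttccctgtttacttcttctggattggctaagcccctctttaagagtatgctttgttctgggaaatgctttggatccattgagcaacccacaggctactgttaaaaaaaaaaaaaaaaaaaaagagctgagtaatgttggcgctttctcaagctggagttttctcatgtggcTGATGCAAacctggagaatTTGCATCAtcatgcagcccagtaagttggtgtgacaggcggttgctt
The motifs, searched on both strands, were the amino acid response element bound by ATF4 with C/EBP proteins (TGATGNAA), the antioxidant response element bound by NRF2 (TGACNNNGC), the cyclic AMP response element (TGACGTCA) and the core of the tonicity response element (TGGAAA). Slc7a11 held 2 amino acid response matches, on opposite strands, beginning 66 and 47 bases before the start. Slc38a2 held 1 antioxidant response match, beginning 27 bases before the start. The same letters occur in 3.45% (amino acid response) and 10.2% (antioxidant response) of the 32851 mouse windows of this length. The cyclic AMP motif is found in 1.55% and the tonicity core in 18.6% of them, and neither was in a window of the 7 genes. A match is a stretch of letters and not a measured binding site, and the known amino acid response element of Slc38a2 lies in an intron, outside the stretch printed.

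The 4 controls had 74.0, 54.5, 73.9 and 53.1 CPM of Slc38a1. The 4 knockout libraries had 249, 312, 344 and 242 CPM. The lowest knockout library was above the highest control by more than the whole range of the controls. The means were 63.9 ± 11.7 and 287 ± 49.5 CPM (SD, n = 4 each), and their ratio was 4.49. On the log2 scale the knockout group was higher by 2.17 ± 0.19 (SE). By p-value Slc38a1 was in place 2 of the 14757 genes tested. In the authors' deposited table its log2 fold change, shrunken by DESeq2, was 2.03, with mean scaled counts of 1174 in the controls and 5274 in the knockout group.

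Slc38a2, the system A carrier that many cells induce when amino acids are scarce or the medium is hypertonic, was measured at 77.3, 53.9, 57.8 and 90.2 CPM in the controls. The knockout libraries had 137, 197, 129 and 151 CPM. The groups did not overlap, although the gap between the highest control (S7) and the lowest knockout library (S5) was smaller than for Slc38a1. The means were 69.8 ± 17 and 153 ± 30.4 CPM (SD, n = 4 each). Their difference was 1.13 ± 0.20 (SE) on the log2 scale, in place 37 by p-value. In the authors' deposited table the log2 fold change was 1.04 and the place by adjusted p 47.

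The 2 genes differed in the size of their fold change. The ratio of Slc38a1 to Slc38a2 CPM was 0.588 to 1.28 in the controls and 1.59 to 2.67 in the knockout group. With each library left out in turn, Slc38a1 stayed past an adjusted p of 0.05 (edgeR's quasi-likelihood test, Benjamini-Hochberg adjusted) in 8 of 8 fits, with log2 fold changes of 2.08 to 2.25. Slc38a2 stayed past it in 1 of 8, the fit without control S7, with log2 fold changes of 0.99 to 1.29. These counts describe the fits and are no independent evidence, since both genes were chosen with their values known. The plot of the fits with a library left out shows them.

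**Figure D1:**
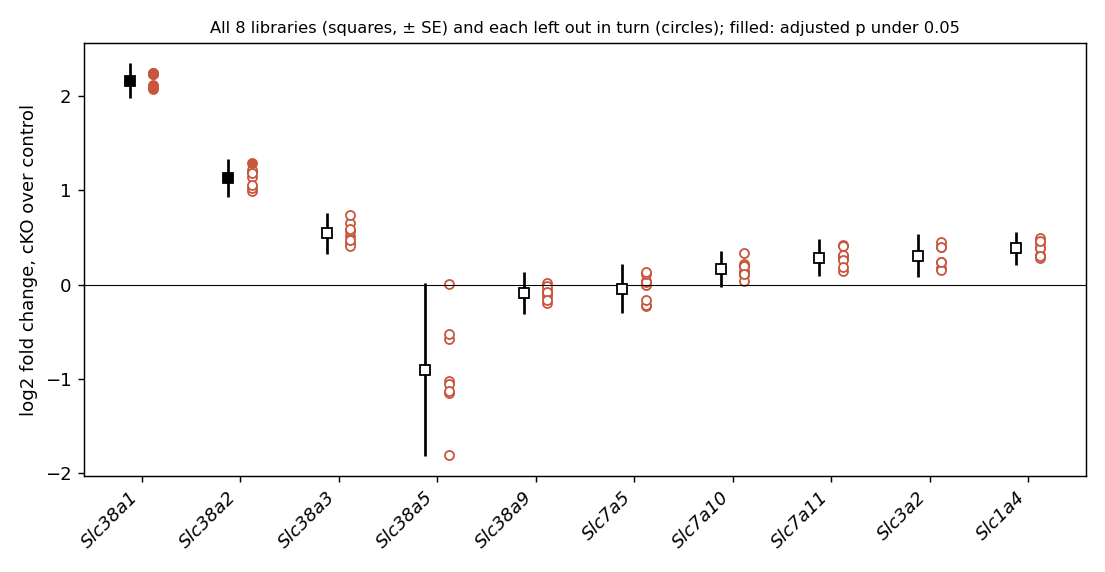
Log2 fold change (cKO over control, vertical axis) of the 10 transporter genes with all 8 libraries (squares with the SE) and with each library left out in turn (circles). Filled symbols passed an adjusted p of 0.05. All 8 circles are filled for Slc38a1 and 1 of 8 for Slc38a2, and the circles of Slc38a5 run from −1.81 to 0.01.

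Of the 10 genes, 2 passed the threshold of an adjusted p of 0.05 in edgeR's quasi-likelihood test, both higher in the knockout group, where 47 of all genes tested did so (0.318%), 30 of them higher (0.203%) and 17 lower. The same 2 of the 10 passed in DESeq2, where 384 of 15441 genes did (2.49%), and in the authors' deposited table, where 353 of 12314 did (2.87%). The same 2 were also the only ones of the 10 whose groups did not overlap, against 6.34% of all genes tested. Nothing is read from these shares, since the choice of genes used this comparison. The median log2 fold change of the 10 genes was 0.30, with 7 of 10 above 0, and the median of all genes tested was −0.02.

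**Figure D2:**
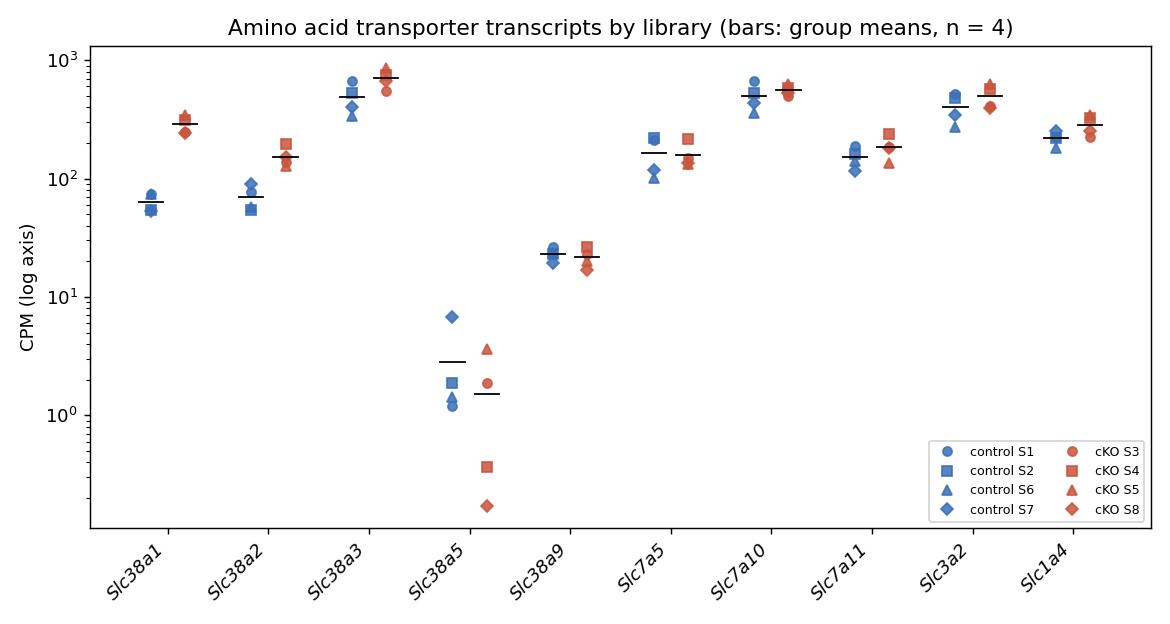
CPM (log axis) of the 10 transporter genes in each of the 8 libraries, with group means as bars. The 4 knockout libraries of Slc38a1 (242 to 344 CPM) and of Slc38a2 (129 to 197 CPM) lie above all controls, and the libraries of the 2 groups overlap for the other 8 genes.

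The system N carriers did not show the same separation. Slc38a3 (ENSMUSG00000010064, chr9:107650634-107669530), the main glutamine carrier of astrocytes, was at 669, 530.5, 339 and 405 CPM in the controls. The knockout libraries had 553, 749, 862 and 672 CPM. The knockout mean was 1.46 times the control mean (log2 fold change 0.55 ± 0.22, SE), but control S1 was above cKO S3 and close to cKO S8. Slc38a5 (ENSMUSG00000031170, chrX:8271133-8280179), the other system N carrier, was near the limit of detection, with 19 to 143 reads in the controls and 4 to 64 in the knockout group. Its log2 fold change of −0.91 ± 0.92 (SE) rested on control S7 at 6.77 CPM, the other controls being at 1.20 to 1.89 CPM. Without control S7 the value was 0.01. The summed markers of oligodendrocyte precursors were highest in the same library, at 1233 CPM against 408 to 768 CPM in the other controls and 311 to 554 CPM in the knockout group, and their part in the Slc38a5 values was not tested.

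Slc38a9 (ENSMUSG00000047789, chr13:112660751-112738749), which senses arginine at the lysosome for the kinase mTORC1, was at 19.2 to 26.6 CPM in the controls and 16.9 to 26.4 CPM in the knockout group. The log2 fold change was −0.09 ± 0.23 (SE), and its sign turned with unadjusted library totals (0.02) and without cKO S8 (0.01). Its locus overlaps the predicted genes Gm47827 and Gm18883.

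The libraries of the 2 groups overlapped for the heavy chain and for each of its light chains. Slc3a2 (ENSMUSG00000010095, chr19:8706882-8723369) was at 519, 482, 273 and 346 CPM in the controls and at 411, 567, 633 and 394 CPM in the knockout group (log2 fold change 0.31 ± 0.23, SE). Slc7a10 (Asc-1, ENSMUSG00000030495, chr7:35186385-35201114), which exchanges glycine, L-serine and D-serine, was at 668, 531, 357 and 432 CPM in the controls and at 498, 578, 627 and 524 CPM in the knockout group. Its log2 fold change was 0.16 ± 0.19 (SE), and its locus overlaps Lrp3 on the other strand. The ratio of Slc3a2 to Slc7a10 CPM was 0.764 to 0.907 in the controls and 0.751 to 1.01 in the knockout group.

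Slc7a5 (LAT1, ENSMUSG00000040010, chr8:121881150-121907694), the carrier of large neutral amino acids such as leucine, was at 214, 220.0, 102 and 119 CPM in the controls. The knockout libraries had 148, 216, 133 and 137 CPM. The log2 fold change was −0.04 ± 0.26 (SE), and 9 of 19 alternative fits gave the opposite sign, with a range from −0.23 to 0.31. Slc7a5 overlaps Gm20388. Slc7a11 (xCT, ENSMUSG00000027737, chr3:49892526-50443614), which imports cystine in exchange for glutamate and feeds glutathione synthesis, was at 115 to 188 CPM in the controls and 135 to 238 CPM in the knockout group (log2 fold change 0.29 ± 0.20, SE). It spans 5 predicted genes, Gm37854, Gm37826, Gm37692, Gm2345 and Gm37498. Slc1a4 (ASCT1, ENSMUSG00000020142, chr11:20302180-20332713), a sodium-dependent exchanger of serine, alanine and threonine, was at 223, 222, 180.4 and 251 CPM in the controls and at 223, 325, 345 and 250.4 CPM in the knockout group. The groups overlapped through cKO S3 and S8, and the log2 fold change was 0.38 ± 0.18 (SE).

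Slc38a3, Slc7a10 and Slc3a2 varied together within the groups. In the controls all 3 were higher in S1 and S2 than in S6 and S7, as was Slc7a5, and in the knockout group all 3 were highest in S5. After each group's mean was subtracted from log2 CPM, Pearson's r over the 8 libraries was 0.974 for Slc38a3 with Slc7a10, 0.931 for Slc38a3 with Slc3a2 and 0.921 for Slc7a10 with Slc3a2. These values describe the same 8 libraries, whose depth and cell content each gene shares, and carry no p-value. Slc38a2 did not follow them: it was highest in S7 among the controls and in S4 among the knockout libraries. By the same measure Atp1b2, an abundant astrocyte sodium pump subunit among the markers, was at r = 0.922 with Slc7a5 and 0.913 with Slc7a10. It was at 0.874 with Slc3a2, 0.868 with Slc38a3, 0.632 with Slc7a11 and 0.593 with Slc38a9. The lower values were 0.315 with Slc1a4, 0.268 with Slc38a1, 0.00044 with Slc38a2 and −0.208 with Slc38a5. For the log2 summed markers of oligodendrocyte precursors, r ran from −0.695 (Slc7a5) to 0.617 (Slc38a5). It was −0.629 with Slc38a3, −0.557 with Slc7a10 and −0.541 with Slc3a2. For the share of ribosomal RNA type or mitochondrial reads, r ran from −0.622 (Slc3a2) to 0.201 (Slc38a2). The part of these measures in the shared variation was not tested.

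**Figure D3:**
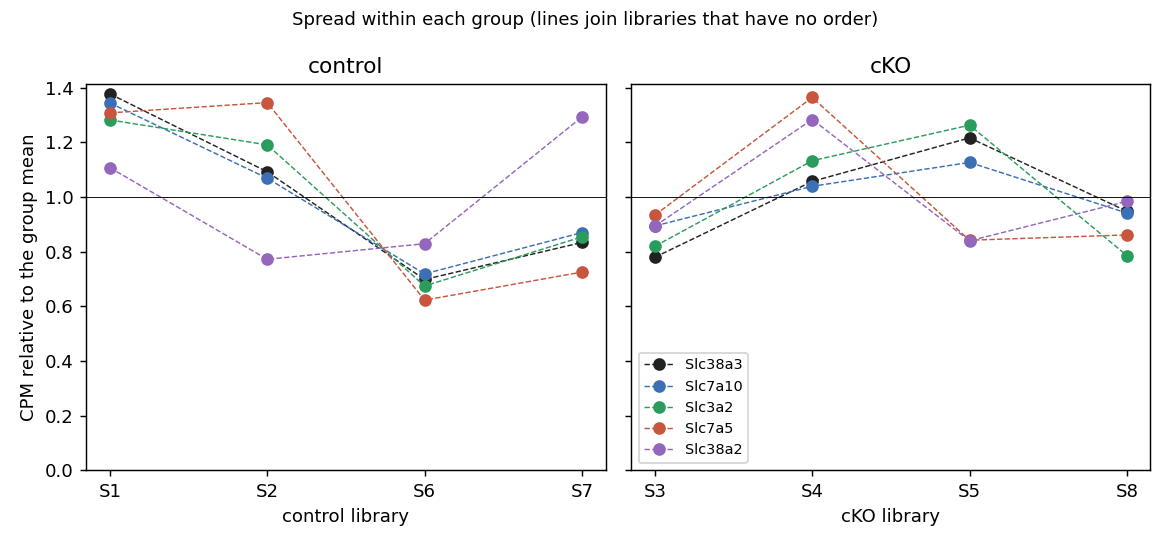
CPM of Slc38a3, Slc7a10, Slc3a2, Slc7a5 and Slc38a2 in each library, relative to the mean of its group (vertical axis), for the control libraries on the left and the knockout libraries on the right. In the controls Slc38a3, Slc7a10, Slc3a2 and Slc7a5 lie above 1 in S1 and S2 and below 1 in S6 and S7, whereas Slc38a2 is highest in S7.

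Among 10022 tested genes with a mean of at least 5 CPM, the 5 with the highest within-group correlation with Slc38a1 were Rrs1 (r = 0.970), Stag2 (0.969), Ciz1 (0.966), Diaph3 (0.960) and Bnip3l (0.951). With so many genes and 8 libraries, the highest values are high by selection. None of the 5 passed the threshold between the groups in edgeR's quasi-likelihood test (adjusted p 0.349 to 0.871), and their log2 fold changes ran from −0.32 (Rrs1) to 0.76 (Diaph3).

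Levels of different genes were compared per transcript length, as deposited fragments per kilobase scaled to depth (FPKM), whose columns were used by group only. In the controls Slc7a10 was highest at 903 ± 166 FPKM (SD, n = 4), followed by Slc38a3 at 263 ± 80.0 and Slc3a2 at 219 ± 64.7, whose columns overlapped. Slc7a5 at 79.2 ± 34.4 FPKM and Slc1a4 at 75.1 ± 10.3 also overlapped each other, as did Slc7a11 at 22.7 ± 5.4 and Slc38a2 at 19.2 ± 4.3. Slc38a1 came next at 11.1 ± 1.9 FPKM, in place 8 of 10, and Slc38a9 (3.15 ± 0.47) and Slc38a5 (2.46 ± 1.85) came last and overlapped. In the knockout group Slc38a1, at 51.0 ± 8.8 FPKM, was in place 6 and overlapped Slc38a2 at 43.1 ± 7.8, and both were above Slc7a11 at 28.6 ± 6.1. The other places were the same apart from an exchange between Slc1a4 (97.7 ± 19.2) and Slc7a5 (91.9 ± 18.9), whose columns overlapped.

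**Figure D4:**
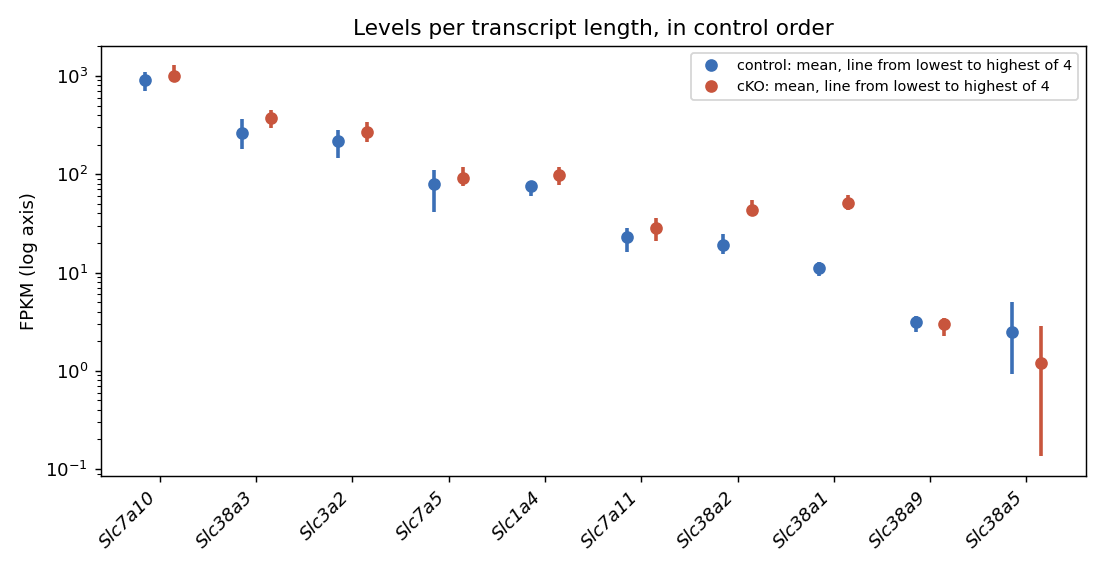
FPKM (log axis) of the 10 transporter genes in the order of the control means, with the group mean as a point and a line from the lowest to the highest of 4 columns. Slc38a1 moves from 11.1 to 51.0 FPKM and Slc38a2 from 19.2 to 43.1 FPKM, while the lines of the 2 groups overlap for the other 8 genes.

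As a share of the summed FPKM of 11 Slc38 genes, Slc38a1 made up 2.90% ± 0.81 in the controls and 8.97% ± 0.75 in the knockout group (SD, n = 4 each). Slc38a2 made up 4.93% ± 1.21 and 7.66% ± 1.46. Slc38a3 was the largest part in both groups, at 65.4% ± 9.1 and 66.3% ± 2.3, and Slc38a6 followed at 21.4% ± 6.6 and 13.3% ± 2.6. The sum itself was 395 ± 68.2 FPKM in the controls and 568 ± 79.7 FPKM in the knockout group. Within it Slc38a3, whose groups overlapped, was at 263 FPKM in the controls and 378 FPKM in the knockout group. Slc38a6 was at 81.4 and 74.7 FPKM, with a log2 fold change of −0.05 in the counts, so its smaller share went with a larger sum. The 2 system A genes stayed minor parts of the Slc38 transcripts next to Slc38a3.

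The genes around Slc38a1 and Slc38a2 on chromosome 15 were not called. On the side of lower coordinates, Scaf11, Arid2 and Ano6 had log2 fold changes of −0.09, −0.07 and 0.24. On the other side, Amigo2 (−1.15 ± 0.57, SE), Pced1b (−1.06 ± 0.72) and Rpap3 (0.27 ± 0.44) were measured at means under 8 CPM in both groups, and the lowest adjusted p of the 6 genes was 0.540 (edgeR's quasi-likelihood test, Benjamini-Hochberg adjusted). Slc38a4, the third system A gene, starts 413 kb from Slc38a1 in the same cluster and did not pass the filter. It had 23 reads in control S6 and 184 in control S7 and 0 reads in the other 6 libraries. Fibroblast markers summed to 636 CPM in control S6 and 259 CPM in S7, against 99.7 to 219 CPM in the other libraries. Markers of oligodendrocyte precursors summed to 768 CPM in control S6 and 1233 CPM in S7, against 311 to 554 CPM in the other libraries. The part of either cell type in the Slc38a4 reads was not tested.

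Markers of other cell types were set beside the system A genes, since these are expressed by many cell types. The 12 neuronal markers summed to 71.0 to 91.7 CPM in the controls and 40.5 to 98.8 CPM in the knockout group, with cKO S5 above the other 3 knockout libraries, and the cholinergic marker Chat was at 0 in 7 of 8 libraries. The 9 microglial markers summed to 27.6 to 45 CPM and 26.8 to 56.7 CPM, the 8 markers of oligodendrocyte precursors to 408 to 1233 CPM and 311 to 554 CPM, and the 10 oligodendrocyte markers to 1480 to 2950 CPM and 983 to 2413 CPM. The 8 mural markers, which share the abundant Cspg4 with the precursor list, summed to 59.7 to 74.3 CPM and 52.5 to 62.3 CPM. Each of these 5 sums overlapped between the groups, but the sums rest on their most abundant genes, and the single markers of several lists were mostly lower in the knockout group.

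None of the single markers of cells other than astrocytes passed the threshold in edgeR's quasi-likelihood test. Over all genes tested, 9.81% had an unadjusted p under 0.05 in that test and 6.34% had groups that did not overlap. DESeq2 called 2.49% of all its genes. The marker counts that follow stand beside these shares. Log2 fold changes and their SE are edgeR's, also for genes that only DESeq2 called. Of the 8 markers of oligodendrocyte precursors, 7 had a log2 fold change below 0, with a median of −1.18; 5 were lower at an unadjusted p under 0.05, and DESeq2 called Gpr17 (−1.19 ± 0.36, SE) and Neu4 (−1.27 ± 0.37) lower. All 10 oligodendrocyte markers were below 0, with a median of −0.46, and 3 were lower at an unadjusted p under 0.05. Of these DESeq2 called the myelin protein gene Mal (−1.61 ± 0.50, SE), and the groups did not overlap for 2. Of the 10 neuronal markers tested, 4 had a log2 fold change above 0, and the median was −0.40. Snap25 and Gad2 were lower at an unadjusted p under 0.05 with no overlap between the groups. DESeq2 called Gad2 only. Of the 7 fibroblast markers tested, 6 were below 0, with a median of −1.62, and DESeq2 called the collagen gene Col1a2 (−0.71 ± 0.18, SE). The fibroblast list shares Pdgfra with the precursor list. Microglial (0.16) and mural (−0.15) medians were nearer to 0, with no marker at such a p and none called by DESeq2. The groups did not overlap for 1 mural and 1 fibroblast marker, both lower in the knockout group. These markers were named after their values were seen, and the part of other cell types in the Slc38a1 and Slc38a2 values was not tested.

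Slc3a2, Slc7a5, Slc38a3 and Slc38a5 are also expressed in the endothelium of the blood-brain barrier. The 12 endothelial markers summed to 360 to 646 CPM in the controls and 597 to 928 CPM in the knockout group, most of it from the glucose carrier Slc2a1 and from Slco1c1, which astrocytes also express. The other 10, which include Cldn5, summed to 57.4 to 80.0 CPM in the controls and 25.1 to 63.9 CPM in the knockout group. Of all 12, 11 had a log2 fold change below 0, with a median of −0.75, and Tek, Abcb1a, Ly6c1 and Esam were lower at an unadjusted p under 0.05. Slc2a1 was the 1 marker above 0 (1.01 ± 0.26, SE), and DESeq2 called it higher.

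Of the 14 astrocyte markers, 2 passed the threshold in edgeR's quasi-likelihood test, and both were higher in the knockout group: the water channel Aqp4 (log2 fold change 1.09 ± 0.18, SE; adjusted p = 0.0243) and Aldh1l1 itself (1.01 ± 0.16; adjusted p = 0.0179). With a library left out, Aqp4 stayed past the threshold in 2 of 8 fits, those without cKO S3 and without control S1. Aldh1l1 stayed past it in 5 of 8, all but those without cKO S4, control S2 and control S6. The neurotensin receptor gene Ntsr2, named after its values were seen, was lower, at 478 to 873 CPM in the controls and 167 to 401 CPM in the knockout group. Its log2 fold change was −1.45 ± 0.28 (SE), with an adjusted p of 0.0544 in edgeR's quasi-likelihood test and 0.00030 in DESeq2, and it was also called in the authors' deposited table. Of the 14 markers 7 were above 0, and the median was −0.0019. The part of these differences in the Slc38a1 and Slc38a2 values was not tested.

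The lists of related genes, 8 in number, held 120 genes beside the 10, of which 97 could be tested. None passed the adjusted threshold in edgeR's quasi-likelihood test. At an unadjusted p under 0.05 there were 12, 6 higher and 6 lower, where 9.81% of all genes tested had such a p. DESeq2 called 4, all lower. The authors' deposited table listed 5, these 4 as lower and Fnip2 as higher. The shares over all genes were 2.49% and 2.87%. The same shares stand beside the counts of each list below. The median log2 fold change of the 97 was 0.02. The plot by gene list shows their spread.

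**Figure D5:**
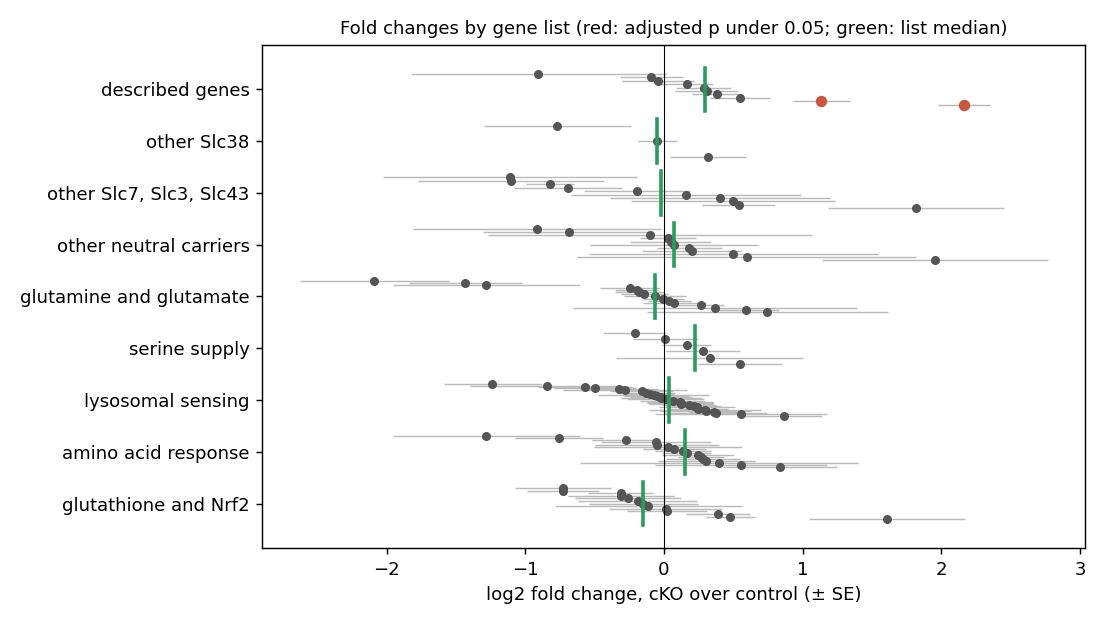
Log2 fold change (cKO over control, horizontal axis, with the SE) of each tested gene in the 10 described genes and in 8 lists of related genes, with the median of each list in green. Slc38a1 and Slc38a2 (red) are the only points past an adjusted p of 0.05, and the list medians lie between −0.15 and 0.30.

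Among the carriers, the clearest difference in the lists was a lower level of Slc43a2 (LAT4), which lets branched-chain amino acids out of cells by facilitated diffusion. It was at 144, 119, 112 and 108 CPM in the controls and at 68.3, 58.9, 85.4 and 61.1 CPM in the knockout group. The groups did not overlap, and the log2 fold change was −0.82 ± 0.17 (SE). Slc43a2 overlaps Gm45606 and Mir3971. Its adjusted p was 0.0800 in edgeR's quasi-likelihood test, 0.00193 in DESeq2 and 0.00160 in the authors' deposited table. Slc7a2, the cationic carrier that was most abundant in its list, was at 190.3 to 469 CPM and 395 to 576 CPM (log2 fold change 0.54 ± 0.26, SE).

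Of the other Slc38 genes, 3 of 6 were tested and none had an unadjusted p under 0.05 in edgeR's test; DESeq2 also called none. Slc38a6 was at 175 to 206 CPM and 161 to 193 CPM, and Slc38a10 at 10.7 to 24.1 CPM and 18 to 23.8 CPM. Of the other neutral carriers, 11 of 17 were tested, 1 had such a p and DESeq2 called none. Slc6a9, the glycine carrier GlyT1, was at 414 to 795 CPM and 496 to 817 CPM (log2 fold change 0.18 ± 0.24, SE), and the lysosomal carrier Slc36a1 had a value of 0.03.

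In glutamine and glutamate metabolism, 15 of 18 genes were tested. In edgeR's test 3 had an unadjusted p under 0.05, 1 higher and 2 lower in the knockout group. The share of all genes tested with such a p was 9.81%. Glutamine synthetase (Glul), which makes the glutamine that Slc38a3 carries, was at 1417 to 1965 CPM and 1335 to 1725 CPM (log2 fold change −0.20 ± 0.16, SE). The glutamate carrier Slc1a2 (GLT-1) had a value of −0.18 ± 0.17. Gpt and Gad2, named after their values were seen, were the 2 of this list that DESeq2 called, with adjusted p of 0.0273 and 0.00853. Gpt, an alanine aminotransferase, was at 14.0 to 29.7 CPM and 3.64 to 12.1 CPM. Gad2, which makes GABA and is one of the neuronal markers, was at 4.66 to 27.0 CPM in the controls and 2.31 to 4.33 CPM in the knockout group. Of 6 genes of serine supply, none had an unadjusted p under 0.05 in edgeR's test and DESeq2 called none. Psat1, which acts in serine synthesis, had a log2 fold change of 0.16 and Shmt2, which converts serine to glycine, of −0.21.

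The lists that sense amino acid supply likewise held no call in edgeR's test. Of 28 genes of lysosomal mTORC1 signalling, all were tested and 2 had an unadjusted p under 0.05, against 9.81% of all genes tested. The 2 were Fnip2 (higher) and Nprl2 (lower), both named after their values were seen. Both were also called in the authors' deposited table. Nprl2, a subunit of the GATOR1 complex that restrains mTORC1, was at 11.1 to 15.1 CPM and 2.70 to 6.74 CPM and was called by DESeq2 (adjusted p = 0.0161). Mtor itself had a log2 fold change of 0.36 ± 0.18 (SE) and Flcn of −0.10 ± 0.17. Of 21 genes of the amino acid deprivation response, which is driven by Atf4 and in many cells raises Slc38a2, 16 were tested. Of these, 1 had such a p and was lower, and DESeq2 called none. Gpt2 and Psat1, the most abundant of them, had log2 fold changes of 0.26 and 0.16. Trib3, Chac1, Cebpb, Eif4ebp1 and Nupr1 of this list were at 0 reads in at least 1 library, so the list is a limited view of this response. Of 13 genes of glutathione synthesis and the Nrf2 response, which shares the target Slc7a11, all were tested and DESeq2 called none. In edgeR's test 3 had such a p, 2 higher, with Nfe2l2 among them, and 1 lower, which was not Slc1a1. Nfe2l2, which encodes Nrf2, had a log2 fold change of 0.48 ± 0.18 (SE), and the glutamate and cysteine carrier Slc1a1 one of −0.73 ± 0.35.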

How the data were processed

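RNA of 8 libraries (4 per group) was measured; per the labels, the NuGEN RNA-Seq V2 kit turned the full-length RNA into cDNA. The authors deposited whole-number counts per gene and library; FastQC 0.11.4, TopHat2 2.0.11, Bowtie2 2.2.3, HTSeq 0.6.1p1, DESeq2 1.14.1, Cuffnorm and Cufflinks 2.2.1 with GRCm38 are named in the submitters' processing notes, and the strand setting and annotation release are not given in the sources used here. Without strand, reads of overlapping genes cannot be told apart. The 5 summary lines per count table were left out. The deposited FPKM values carry library names, but over 10031 genes the best match in the counts had the column's own name for only 3 of 8 columns, though it was in the right group for all 8, so FPKM were used by group only. The authors' deposited comparison holds mean scaled counts (a signal per gene), shrunken log2 fold changes, their standard errors and Wald statistics (scores), and p-values, per the file headers.

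The counts were fitted in edgeR 4.0.16 (quasi-likelihood test, TMM, filterByExpr, no covariate, Benjamini-Hochberg adjustment over all genes tested, threshold 0.05) in R 4.3.3, checked with DESeq2 1.42.0 and limma 3.58.1, and tested on simulated data. Log2 fold changes and standard errors are edgeR's unless another source is named. Standard errors were taken from the test statistic. Pearson's r used log2 CPM with a prior count of 0.5. Coordinates are 1-based, from GENCODE mouse release M21 on GRCm38; promoter windows are RefSeq's on GRCm38.p6. Genes named are Kcnj10, the 10 transporters, the called and the 2 most abundant genes of each list and the 5 genes most like Slc38a1. The 3 nearest protein-coding genes on either side, and markers or list genes beside a result, are also named. The transporters and all lists were chosen with earlier results of these data known. Replicates were not reassigned, and the labels give no sex, batch or pairing. Alternatives were other normalizations, filters and tests, Xist as a covariate, no ribosomal or mitochondrial genes, FPKM fits with limma (log2 of FPKM plus 1 or 0.1) and each library left out. Figures were drawn with matplotlib 3.10.9 in Python 3.11.15.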

Additional observations from a re-analysis of the deposited data

Results flagged for a closer look

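In the knockout group Nfe2l2 was at 90.6 CPM in cKO S5 and at 63.8 to 66.4 CPM in the other 3 libraries. On the log2 scale the gap from S5 to its nearest neighbour was 0.885 of the group's whole range, beyond Dixon's 95% critical value for 4 samples. The same measure, in which chance passes about 5.3 of the 106 groups of 4 libraries examined, was beyond that value in 4 other groups of the named genes that were tested. Nprl2 was at 2.70 CPM in cKO S8 and at 5.93 to 6.74 CPM in the other 3 (gap 0.859). Snap25 was at 40.0 CPM in control S7 and at 21.9 to 23.1 CPM in the other controls (gap 0.915). Scaf11 was at 53.9 CPM in control S2 and at 63.8 to 65.6 CPM in the others (gap 0.861), and Cldn5 at 1.75 CPM in control S2 and at 4.34 to 5.07 CPM in the others (gap 0.853).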

How the results depend on the processing

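Slc38a1 was past the threshold in 19 of 19 alternatives (log2 fold changes 2.08 to 2.28) and Slc38a2 in 9 of 19 (0.99 to 1.29); Slc38a2 was lost in the 3 FPKM fits and in 7 of the 8 fits that left out a library, all but the one without control S7, so that the number of transporters called ranged from 1 to 2 in those 8 fits. Both were called in the 8 other fits to counts. Over all genes, 47 calls became 384 with DESeq2, 28 with Xist as a covariate, 87 with at least 1 count in any library and 84 with at least 10 counts in every library. Leaving out 1 library gave 4 (without cKO S4) to 45 calls (without cKO S3), with 14 without control S2, 16 without control S6, 24 without cKO S5, 28 without cKO S8 and 30 without control S1. Unadjusted library totals raised the median log2 fold change of all genes by 0.11 and gave 62 calls, 48 higher and 14 lower, against 30 higher and 17 lower with TMM. Of the genes in the 8 lists, 0 calls became 4 with DESeq2 and 1 (Slc43a2) with at least 10 counts in every library, and stayed at 0 in the 8 fits that left out a library. The sign turned for Flcn with library totals (0.022) and without cKO S8 (−0.15 to 0.020 over the fits that left out a library), for Slc36a1 without cKO S4, cKO S8 or control S6 (−0.058 to 0.16), and for Slc38a6 with library totals (0.064) and without cKO S4 (−0.083 to 0.0083). It also turned for Arid2 with library totals (0.037), with Xist as a covariate (0.0066) and without cKO S5 or control S7 (−0.16 to 0.053), for Scaf11 with library totals (0.0047) and without cKO S5 (−0.21 to 0.051), for Rpap3 without cKO S4 (−0.030 to 0.63) and for Ciz1 without cKO S5 (−0.023 to 0.38). The cause of these changes was not tested. No paired analysis was made because the labels give no pairing, and the replicate numbers, which run on over both groups, cannot show any.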
